A study of Homo sapiens with 4 samples.

Results

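The Wnt and beta-catenin pathway with the delta-catenins was taken as 36 genes, chosen by their symbols, in RNA sequencing of BT-474 cells. The choice was made with earlier results of these data known. All 36 were listed among the 18882 genes of the deposited tables, and 34 of them passed the filter on low read counts that left 14298 genes for testing. The other two, DKK3 and SFRP1, had too few reads. The genes were grouped by role into 4 catenins, 4 genes of ligands and ligand secretion, 2 secreted inhibitors, 11 receptors, 3 dishevelled genes, 3 genes of the destruction complex, 4 TCF factors and 5 feedback targets.

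BT-474 is an established human breast cancer cell line of the luminal B-like type, grown in RPMI-1640 with 10% FBS. The control group held 2 libraries (replicates 1 and 2) of cells labelled wild-type, and the BT-474 NRP-1 group held 2 libraries (replicates 2 and 3) of cells that overexpress Neuropilin-1 (NRP-1), a co-receptor for semaphorins and VEGF. The BT-474 NRP-1 cells were stably transfected with an NRP-1 plasmid, isolated as colonies and selected with Geneticin, so the transfection and selection cannot be told apart from NRP-1 itself in this comparison. The labels do not say whether the libraries of a group came from separate cultures or clones, and p-values then measure only the spread between libraries, which may be technical. The comparison asked which RNAs of the pathway differed between the groups.

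The libraries held between 8243595 and 8448926 expected counts, called reads below. Values are given for control replicates 1 and 2 then for NRP-1 replicates 2 and 3, fold changes are BT-474 NRP-1 over control cells, and SE stands for standard error. NRP1 had 7 and 8 reads without and 103 and 62 reads with NRP-1 overexpression, with a log2 fold change of 3.38 (SE 0.42, edgeR adjusted p = 0.044). All 10 luminal epithelial marker genes examined were tested and read in every library, whereas the fibroblast markers PDGFRA and PDGFRB and the T cell marker CD3E had no reads. Of the luminal genes edgeR called 0, with 2 higher and 1 lower at an unadjusted p under 0.05 (10.8% and 12.1% of all genes). DESeq2 called GATA3 higher, with 184 and 186 reads against 688 and 289. For ESR1 (395 and 437 against 273 and 735) and PGR (702 and 717 against 419 and 1138) the NRP-1 libraries lay on either side of the controls. Some other genes of the fibroblast and immune lists were read, as given next. The immune list of 6 genes summed to 112 and 99.7 CPM in the controls against 75.3 and 78.2 CPM with NRP-1, where CPM is reads scaled to a common library size. In it the macrophage marker CD68, with 320 and 281 reads against 107 and 89, was called lower (log2 -1.67, edgeR adjusted p = 0.0423). Most of the immune sum came from LYZ, with 575 and 520 reads against 522 and 558 and overlapping groups. The fibroblast list of 8 genes summed to 214 and 212 against 178 and 160 CPM, most of it from COL1A1. COL1A1 was the 1 gene of this list that was tested. Neither edgeR nor DESeq2 called it, and it was lower at an unadjusted p under 0.05 in edgeR. The endothelial list of 5 genes summed to 6.16 and 9.13 against 14.2 and 12.3 CPM, with VWF at a log2 fold change of 1.66 (edgeR adjusted p = 0.0998). A basal or myoepithelial list of 6 genes summed to 7.64 and 11.3 against 11.5 and 20.1 CPM. Of its 2 tested genes, 0 were called by edgeR and by DESeq2. The biological coefficient of variation, the relative spread between libraries of a group, was 0.225 in the NRP-1 pair and 0.0640 in the control pair. A list of 15 proliferation genes summed to 659 and 833 CPM in the control libraries and to 1168 and 2611 CPM in NRP-1 replicates 2 and 3. Of these 15 genes, 13 were higher at an unadjusted p under 0.05 in edgeR, where 0 had an adjusted p under 0.05, and DESeq2 called 13, all higher. The part of these differences in the results below was not tested. In RNA from a whole culture, fewer expressing cells and less RNA per cell cannot be told apart.

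Wnt ligands are secreted lipid-modified proteins that bind a frizzled receptor together with LRP5 or LRP6 at the cell surface. The receptors recruit dishevelled proteins and inhibit the destruction complex of APC, axin and kinases, which otherwise marks beta-catenin for degradation. Beta-catenin that escapes degradation enters the nucleus, where it joins TCF and LEF factors at target genes, several of which encode feedback inhibitors of the pathway. Beta-catenin also links cadherins to alpha-catenin at cell junctions, and the delta-catenins bind cadherins at another part of their cytoplasmic tail. Activity of this pathway is set largely by protein stability and location, which RNA levels do not measure.

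CTNND2, the gene of delta-catenin, was the gene of the pathway called between the groups by edgeR's quasi-likelihood test, and was 1 of 3 called by DESeq2. The stretch amplified for its quantitative PCR is shown to place that assay in the gene. The text of the paper reports no result of this assay for CTNND2. Its primer pair, from the list of primers published with the data, was matched to the coding sequence of a GENCODE transcript of 5481 bases, where it spans 57 bases from position 2315 to 2371. On GRCh38 these bases lie on the minus strand within chr5:11117546-11159610, in exons 12 and 13 of 22, so the product crosses a splice junction. The capitals mark the bases covered by the forward primer and by the reverse primer, the latter given as its reverse complement.
CTNND2 amplicon: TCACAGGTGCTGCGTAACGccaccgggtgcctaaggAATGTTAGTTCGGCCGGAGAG

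The 250 bases before the RefSeq start of CTNND2 and of DKK1, the pair of genes among the 36 with the largest log2 fold changes, are shown to compare the start regions of these genes. They lie at chr5:11904447-11904696 on the minus strand for CTNND2 and at chr10:52314031-52314280 on the plus strand for DKK1 (RefSeq, GRCh38.p14). Capitals mark the letters searched for, CTTTGAT and CTTTGTT, which are forms of the site of TCF factors, and TATAAA, the core of a TATA box, on both strands.
CTNND2 upstream window: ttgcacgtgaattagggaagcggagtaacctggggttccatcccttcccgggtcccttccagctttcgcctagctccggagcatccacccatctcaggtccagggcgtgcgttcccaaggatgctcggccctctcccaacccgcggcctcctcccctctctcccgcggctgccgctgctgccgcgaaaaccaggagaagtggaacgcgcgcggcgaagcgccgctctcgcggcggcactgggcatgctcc
DKK1 upstream window: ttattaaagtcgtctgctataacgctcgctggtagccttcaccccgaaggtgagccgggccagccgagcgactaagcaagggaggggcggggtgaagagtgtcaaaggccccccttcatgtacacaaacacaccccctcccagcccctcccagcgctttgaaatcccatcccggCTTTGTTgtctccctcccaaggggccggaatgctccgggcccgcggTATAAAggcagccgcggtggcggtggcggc
The DKK1 window held CTTTGTT starting 76 bases and TATAAA starting 30 bases before the start, and the CTNND2 window held none of the 3 sequences. Of 35116 windows of this length, 4.5% held CTTTGTT, 10.7% held TATAAA and 2.26% held CTTTGAT. Among the 16187 windows of tested genes the shares were 3.18%, 6.15% and 1.44%. A window was given for 24 of the 36 genes, among which CTTTGTT was found for DKK1, TCF7 and TCF7L2, TATAAA for DKK1, FZD8 and TCF7, and CTTTGAT for CTNNA1. The window of RNF43 held none of them. G and C made up 67.2% of the CTNND2 window and 62.8% of the DKK1 window. These matches describe the letters only.

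In edgeR, CTNND2 was higher in BT-474 NRP-1 cells at an adjusted p under 0.05, which is 2.94% of the 34 tested genes of the pathway against 1.09% of all genes tested, 0.413% higher and 0.678% lower. CTNND2 was already on the paper's list of upregulated genes from these libraries, so this share is no independent support. At an unadjusted p under 0.05, 8 of 34 genes (23.5%) differed against 22.9% of all genes tested. CTNND2, DKK1, RNF43, FZD4, TCF7L1 and APC were the 6 higher ones (17.6% against 10.8% of all genes), and WNT4 and PORCN the 2 lower ones (5.88% against 12.1%). DESeq2 called CTNND2, DKK1 and RNF43 at an adjusted p under 0.05, all higher, which is 8.82% against 6.67% of all genes, 2.78% higher and 3.89% lower. The share that differed in either direction was near that of all genes at the unadjusted threshold, and the calls after adjustment rest on 1 gene in edgeR and 3 in DESeq2. The libraries of the groups did not overlap for 21 genes (61.8% against 56.2% of all genes), of which 14 lay higher and 7 lower with NRP-1. The median log2 fold change was 0.11 over the 34 genes and 0.02 over all genes tested. The other 26 genes had log2 fold changes from -0.83 to 0.37 with adjusted p from 0.348 to 0.985 (edgeR).

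**Figure D1:**
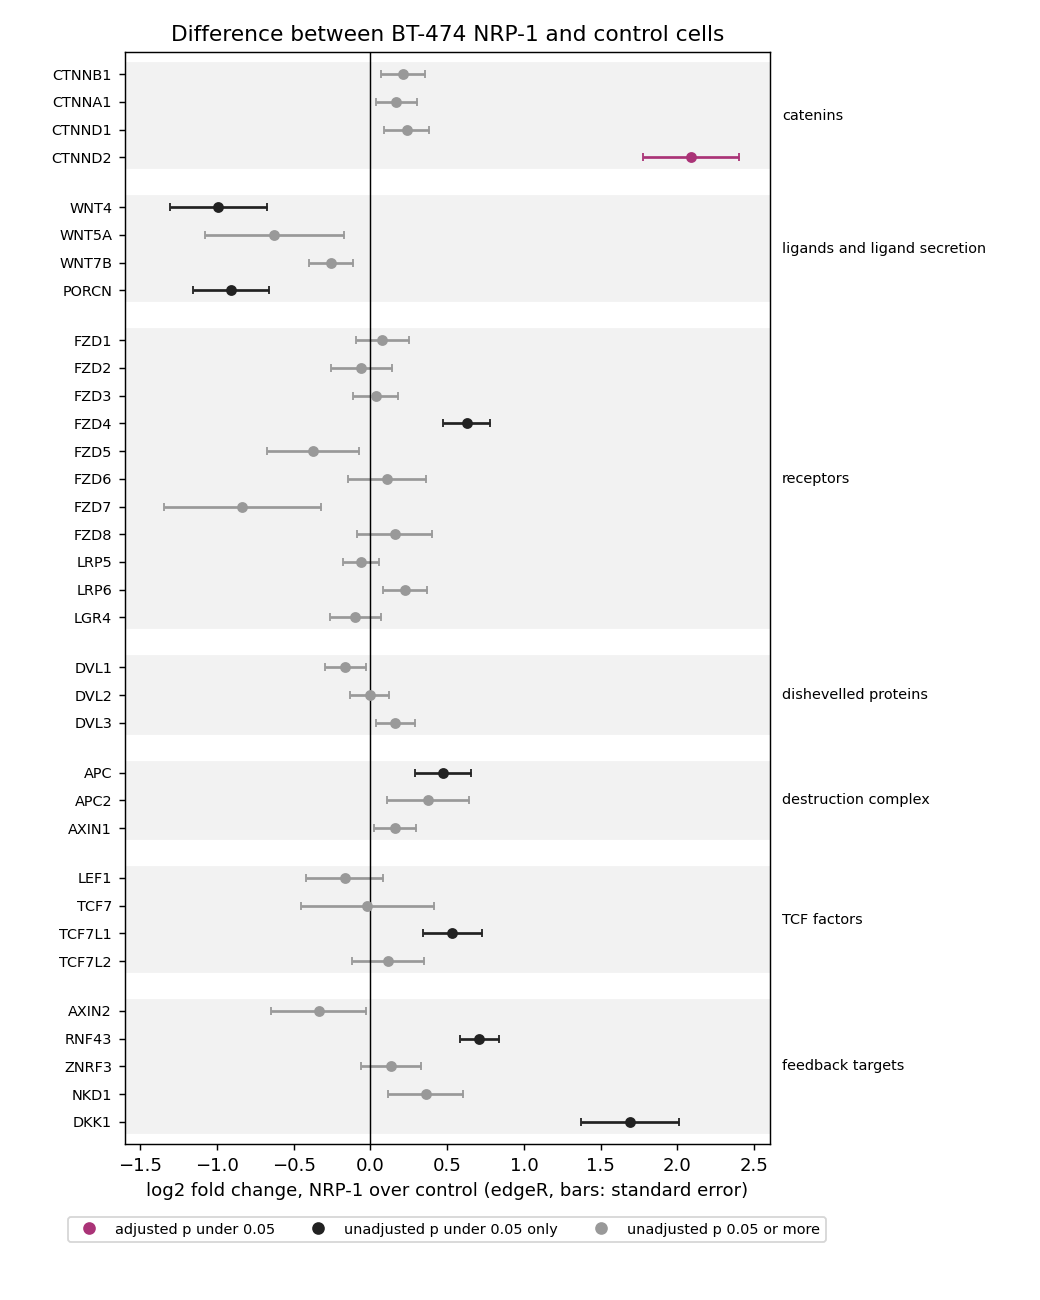
Log2 fold change of each tested gene of the pathway (horizontal axis, BT-474 NRP-1 over control, edgeR, 2 libraries per group), with bars of 1 standard error and genes grouped by role. CTNND2 at 2.09 is the gene with an adjusted p under 0.05, DKK1 follows at 1.69, and the 4 genes of ligands and ligand secretion lie left of 0.

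Among the catenins, CTNND2 (gene ID 1501) rose in BT-474 NRP-1 cells, whereas the RNAs of beta-catenin, alpha-catenin and p120-catenin did not pass the test. CTNND2 had 39 and 57 reads without and 168 and 258 reads with NRP-1 overexpression. Every NRP-1 library was above both control libraries, and the groups did not overlap. The level was 5.87 ± 1.51 CPM (SD, n = 2) in the controls against 25.0 ± 7.45 CPM (SD, n = 2) with NRP-1, a 4.25-fold difference. The log2 fold change was 2.09 (SE 0.31 and adjusted p = 0.0498 from edgeR) and lay between 1.75 and 2.38 when single libraries were left out. It was 1.85 without control replicate 1 and 2.38 without control replicate 2. The adjusted p was 8.6e-06 from DESeq2, 0.105 from limma on log2(FPKM + 1) and 0.119 from edgeR without the filter on low counts. The call of CTNND2 thus depended on the test and on the filter. The paper lists CTNND2 among its significant upregulated genes from these libraries and shortlisted it for quantitative PCR. Its text reports no quantitative PCR result for this gene. The direction of CTNND2 here is therefore not independent evidence.

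CTNND2 was a low RNA in both groups beside its relative CTNND1, the gene of p120-catenin. In FPKM, which is reads scaled to transcript length and library size, CTNND2 was at 0.86 and 1.25 in the controls and at 3.65 and 5.56 with NRP-1. The group means of CTNND1 were 74.1 and 88.8 FPKM. CTNND2 made up 1.17% and 1.62% of the summed FPKM of CTNND1 and CTNND2 in the controls, against 3.56% and 6.61% with NRP-1. With ARVCF and PKP4 added, which encode further delta-catenin relatives, its share was 0.823% and 1.14% against 2.74% and 4.58%. In either comparison the share was higher in each NRP-1 library than in the control libraries.

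CTNNB1 (gene ID 1499), which encodes beta-catenin itself, had 1773 and 1797 reads without and 2389 and 1924 reads with NRP-1 overexpression. The higher of the NRP-1 libraries was replicate 2, and replicate 3 lay close to the controls. The level was 219 ± 0.166 CPM (SD, n = 2) against 253 ± 38.9 CPM (SD, n = 2), with a log2 fold change of 0.21 (SE 0.14 and adjusted p = 0.428 from edgeR). It lay between 0.04 and 0.36 when single libraries were left out. By western blotting, the paper reports less beta-catenin protein in BT-474 NRP-1 cells, which RNA levels do not measure. CTNNA1, which encodes alpha-catenin, had 3407 and 3426 reads against 4323 and 3681, a log2 fold change of 0.17 (SE 0.13 and adjusted p = 0.496 from edgeR).

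CTNND1 (gene ID 1500) had 3526 and 3707 reads without and 4926 and 3942 reads with NRP-1 overexpression, a log2 fold change of 0.24 (SE 0.15 and adjusted p = 0.400 from edgeR). CTNND1 shares its exons with TMX2-CTNND1, a readthrough gene that joins it to its neighbour TMX2, so that reads can be split between them. TMX2-CTNND1 was given 311 and 292 reads in control cells against 0 and 65 with NRP-1 overexpression. These are 8.11% and 7.29% of the summed reads of both genes in the controls, against 0% and 1.63% with NRP-1. The sums were 3837 and 3998 against 4926 and 4008 reads, and the log2 fold change of the sum was 0.13 (SE 0.14 and adjusted p = 0.637 from edgeR). With the reads of TMX2 added it was 0.10 (adjusted p = 0.692 from edgeR). The fold change of CTNND1 thus became smaller once the reads were pooled, and its adjusted p was above 0.05 each time.

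**Figure D2:**
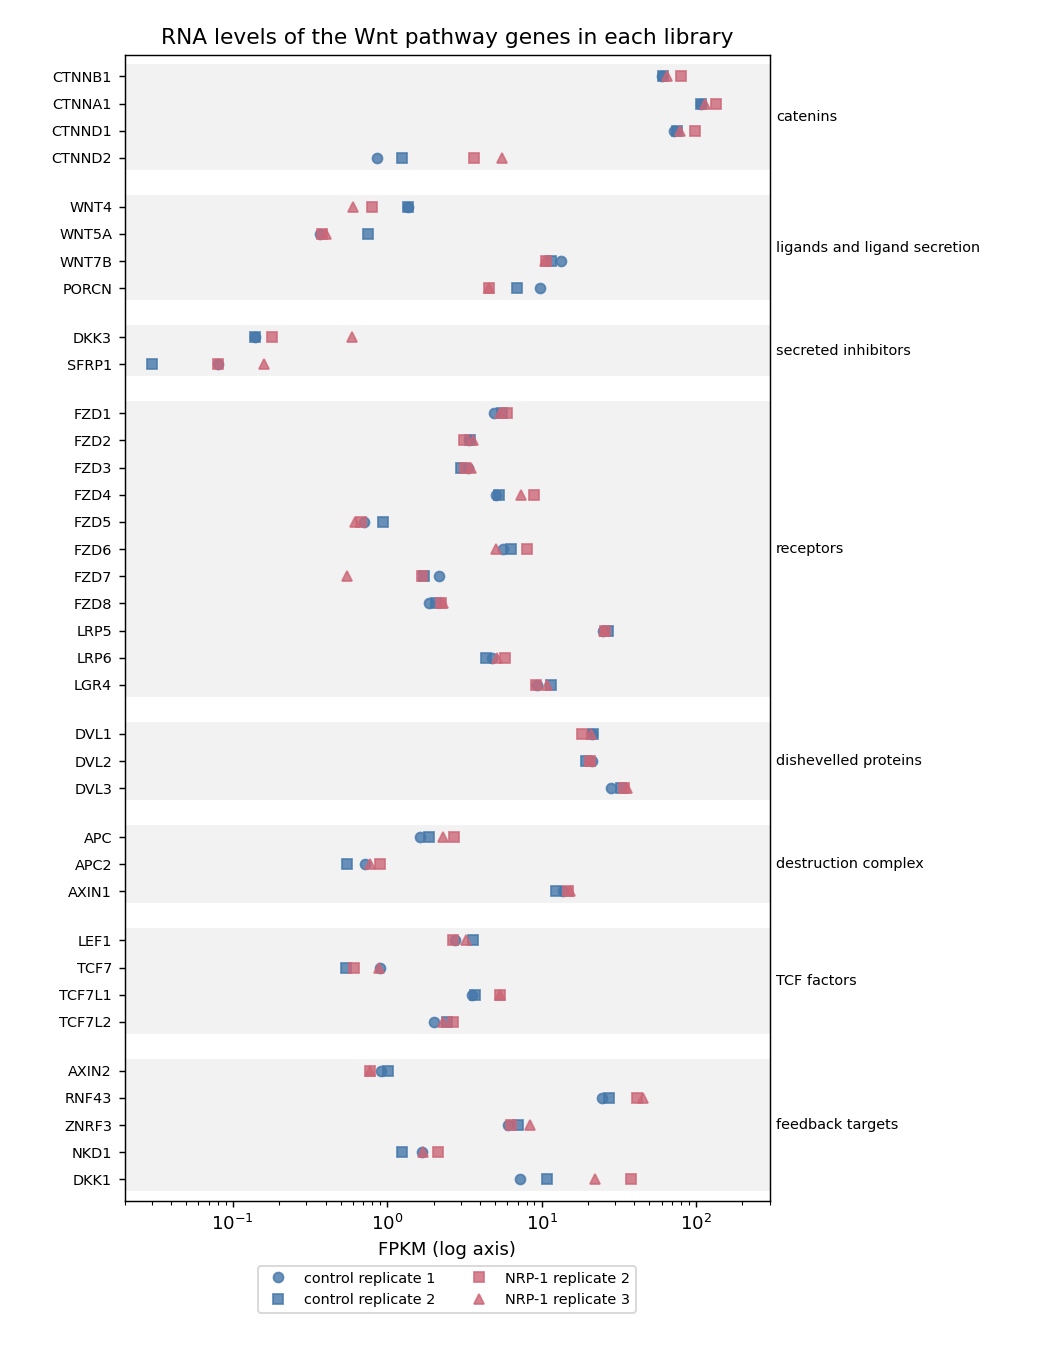
FPKM of all 36 genes in each library (horizontal log axis), with circles and squares in blue for control replicates 1 and 2, and squares and triangles in red for NRP-1 replicates 2 and 3. CTNNA1, CTNND1 and CTNNB1 lie at the right, and the red symbols of CTNND2, DKK1 and RNF43 lie to the right of the blue ones.

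The genes of ligands and ligand secretion had lower fitted values in BT-474 NRP-1 cells in 4 of 4 cases, with a median log2 fold change of -0.77, and none passed the adjusted test. Among all 14298 genes tested, 6897 had lower fitted values. WNT4, a ligand with roles in mammary gland development, had 44 and 44 reads without and 26 and 20 reads with NRP-1 overexpression. The groups did not overlap, with a level of 5.39 ± 0.0471 CPM (SD, n = 2) against 2.70 ± 0.501 CPM (SD, n = 2). Its log2 fold change was -0.99 (SE 0.32 and adjusted p = 0.146 from edgeR, unadjusted p = 0.0207). PORCN, the acyltransferase that adds the lipid without which Wnt ligands are not secreted, had 149 and 107 reads against 71 and 71. Both NRP-1 libraries were below the controls, and the controls differed more from each other than the NRP-1 libraries did. The level was 15.7 ± 3.77 CPM (SD, n = 2) against 8.34 ± 0.00812 CPM (SD, n = 2), a log2 fold change of -0.91 (SE 0.25 and adjusted p = 0.111 from edgeR, unadjusted p = 0.0108).

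WNT7B and WNT5A were the other ligands among the 36 genes. WNT7B had 433 and 377 reads against 354 and 353, and its log2 fold change was -0.26 (SE 0.15 and adjusted p = 0.348 from edgeR). WNT5A, a ligand best known for signalling without beta-catenin, had 19 and 39 reads against 20 and 19, so the groups overlapped and control replicate 2 stood above the rest. Its log2 fold change was -0.63 (SE 0.45 and adjusted p = 0.456 from edgeR), and -0.03 without control replicate 2. By FPKM, WNT7B made up between 43.7% and 50.3% of the summed level of the 16 Wnt ligand genes that were listed, with no separation of the groups. WNT4 made up 5.07% and 5.35% of that sum in the controls, against 3.27% and 2.86% with NRP-1.

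The secreted inhibitors DKK3 and SFRP1, which act on Wnt signalling outside the cell, were near the limit of detection. DKK3 had 3 and 3 reads without and 4 and 13 reads with NRP-1 overexpression. SFRP1 had 3 and 1 reads against 3 and 6. Neither gene passed the filter of the main fit, so no fold change is given for them.

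Of the 11 receptor genes, FZD4 was the 1 with an unadjusted p under 0.05, and the median log2 fold change of the group was 0.03. FZD4, a frizzled that also binds the ligand Norrin, had 311 and 327 reads without and 562 and 464 reads with NRP-1 overexpression. Both NRP-1 libraries were above both controls, with a level of 39.0 ± 1.04 CPM (SD, n = 2) in control and 60.3 ± 8.20 CPM (SD, n = 2) in NRP-1 cells. The log2 fold change was 0.63 (SE 0.15 and adjusted p = 0.0924 from edgeR), so FZD4 did not pass the adjusted threshold.

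FZD7 lay furthest in the other direction among the frizzleds, with 69 and 56 reads without and 55 and 18 reads with NRP-1 overexpression. The low value was that of NRP-1 replicate 3, and NRP-1 replicate 2 was near the controls. The log2 fold change of FZD7 was -0.83 (SE 0.51 and adjusted p = 0.382 from edgeR), and it moved between -1.86 and -0.24 when single libraries were left out. FZD6 had 177 and 202 reads against 260 and 165, so its NRP-1 libraries lay on either side of the controls. FZD5 had 39 and 52 reads against 38 and 35, and FZD8 had 50 and 55 against 60 and 62. FZD1 had 179 and 202 against 220 and 199 reads, FZD2 had 109 and 110 against 102 and 117, and FZD3 had 386 and 348 against 373 and 410. FZD1, FZD2 and FZD3 had log2 fold changes of 0.08, -0.06 and 0.03, and the groups overlapped for each of them.

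The makeup of the frizzled RNAs by summed FPKM showed FZD4 at 18.3% and 18.4% in the controls, against 26.4% and 25.7% with NRP-1. FZD7 made up 7.83% and 6.03% in the controls, against 4.98% and 1.92% with NRP-1. FZD1 was between 17.6% and 19.4% in the 4 libraries. FZD4 thus had a larger share than FZD1 and FZD6 in both NRP-1 libraries, while FZD6 had the larger share in both control libraries. These shares were not tested, and frizzled genes are similar in sequence, so that estimated reads can be divided between them.

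**Figure D3:**
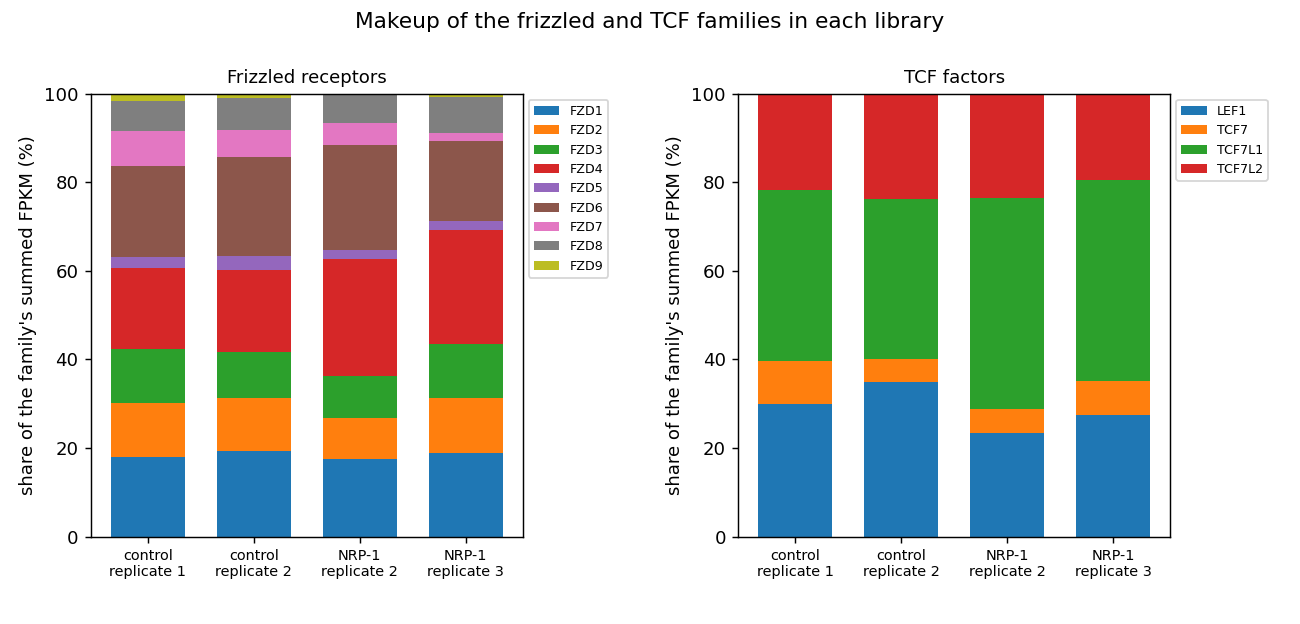
Share of each gene in the summed FPKM (vertical axis, %) of the 9 listed frizzled genes (left) and of the 4 TCF factors (right), with 1 bar per library. FZD4 widens from 18.3% and 18.4% to 26.4% and 25.7%, and TCF7L1 from 38.4% and 36.1% to 47.6% and 45.5%.

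The co-receptors LRP5 and LRP6, and LGR4, a receptor for R-spondins that amplify Wnt signalling, did not pass the test. LRP5 had 1070 and 1173 reads without and 1126 and 1112 reads with NRP-1 overexpression, a log2 fold change of -0.06. LRP6 had 403 and 369 against 496 and 444, a log2 fold change of 0.22 (SE 0.14 and adjusted p = 0.397 from edgeR). LGR4 had 411 and 510 against 412 and 484, with overlapping groups. By FPKM, LRP5 accounted for between 81.7% and 86.2% of the sum of both co-receptors in the 4 libraries.

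The dishevelled genes, whose products carry the signal from the receptors to the destruction complex, had log2 fold changes of -0.16 for DVL1, -0.01 for DVL2 and 0.16 for DVL3. DVL1 had 516 and 525 reads without and 450 and 519 reads with NRP-1 overexpression. DVL2 had 536 and 490 against 531 and 534, and DVL3 had 1196 and 1395 against 1476 and 1540. DVL3 had the largest share of their summed FPKM in every library, from 40.1% to 47.0%.

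The destruction complex genes had positive log2 fold changes in 3 of 3 cases, and none passed the adjusted test. The groups did not overlap for any of the 3, as was so, in the higher direction, for 27.9% of all genes tested. APC, the scaffold that is lost in many colorectal cancers, had 147 and 171 reads without and 247 and 213 reads with NRP-1 overexpression. This was 19.5 ± 1.91 CPM (SD, n = 2) against 27.0 ± 2.85 CPM (SD, n = 2), a log2 fold change of 0.47 (SE 0.18 and adjusted p = 0.199 from edgeR, unadjusted p = 0.0414). APC2, a homologue of APC, had 61 and 47 reads against 78 and 68, a log2 fold change of 0.37 with an adjusted p of 0.448 from edgeR. AXIN1, the core scaffold of the complex, had 415 and 376 reads against 454 and 467, a log2 fold change of 0.16 with an adjusted p of 0.526 from edgeR.

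Among the TCF factors, TCF7L1, which acts mostly as a repressor of Wnt target genes, was the 1 with an unadjusted p under 0.05. TCF7L1 had 86 and 91 reads without and 133 and 134 reads with NRP-1 overexpression. Its libraries were close together within each group, at 10.8 ± 0.338 CPM (SD, n = 2) and 15.7 ± 0.0678 CPM (SD, n = 2). The log2 fold change was 0.53 (SE 0.19 and adjusted p = 0.179 from edgeR). LEF1 had 83 and 109 reads against 78 and 100, and TCF7L2 had 67 and 82 against 90 and 78. TCF7 had 21 and 14 reads against 15 and 21. These 3 factors had overlapping groups and adjusted p of 0.735 for LEF1, 0.813 for TCF7L2 and 0.985 for TCF7 (edgeR). By FPKM, TCF7L1 was the largest of the 4 factors in every library, at 38.4% and 36.1% of their sum in the controls, against 47.6% and 45.5% with NRP-1, while LEF1 was at 30.0% and 35.0% against 23.5% and 27.5%.

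The feedback targets differed in sign and in size, and none passed the adjusted test in edgeR. AXIN2, a target gene widely read as a sign of beta-catenin signalling, had 32 and 36 reads without and 28 and 28 reads with NRP-1 overexpression. Its log2 fold change was -0.34 (SE 0.31 and adjusted p = 0.557 from edgeR), whereas 4 of the 5 feedback targets had positive values. AXIN2 was thus the member of this group whose fitted value was below 0, by about the size of its SE.

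DKK1 (gene ID 22943), a secreted inhibitor that binds LRP5 and LRP6, had 108 and 164 reads without and 574 and 339 reads with NRP-1 overexpression. Both NRP-1 libraries were above both controls, and the higher was replicate 2. The level was 16.6 ± 4.70 CPM (SD, n = 2) against 53.7 ± 19.6 CPM (SD, n = 2), a 3.22-fold difference. The log2 fold change was 1.69 (SE 0.32) with an adjusted p of 0.0680 from edgeR and 6.3e-05 from DESeq2. It lay between 1.25 and 2.02 when single libraries were left out. DKK1 therefore stood on either side of the threshold depending on the test.

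RNF43 (gene ID 54894), a ubiquitin ligase that removes frizzled receptors from the cell surface, had 937 and 1043 reads without and 1600 and 1773 reads with NRP-1 overexpression. The groups did not overlap, at 121 ± 8.12 CPM (SD, n = 2) against 198 ± 14.2 CPM (SD, n = 2). The log2 fold change was 0.71 (SE 0.13), with an adjusted p of 0.0622 from edgeR and 0.00489 from DESeq2. It lay between 0.63 and 0.78 when single libraries were left out. ZNRF3, the homologue of RNF43 with the same role, had 331 and 391 reads against 349 and 478, with overlapping groups. RNF43 made up 80.2% and 79.4% of the summed FPKM of both ligases in the controls, against 86.8% and 84.4% with NRP-1. NKD1, an inhibitor that binds dishevelled proteins, had 122 and 91 reads against 158 and 127, or 0.36 on the log2 scale (adjusted p = 0.426 from edgeR).

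**Figure D4:**
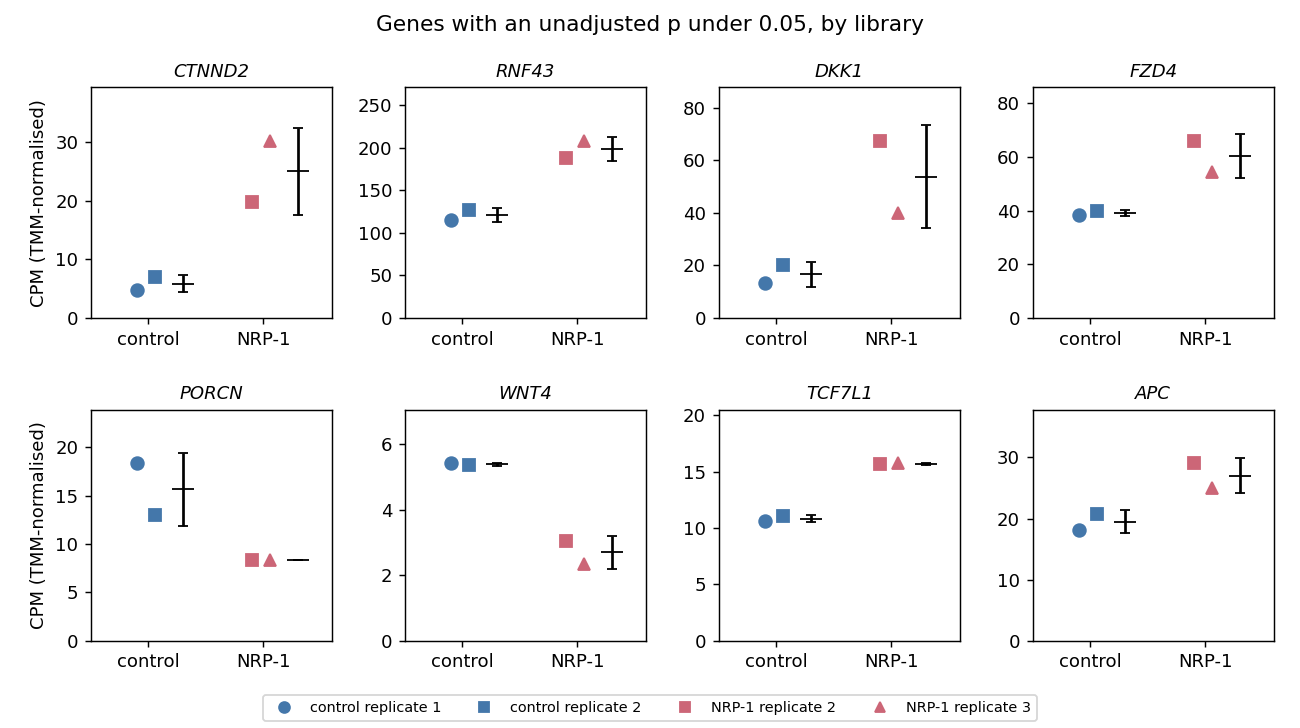
Level in TMM-normalised CPM (vertical axis from 0, own scale per gene) of the 8 genes with an unadjusted p under 0.05, by library, with the mean and SD of each group (n = 2) beside the points. The groups do not overlap for any of the 8, but these were chosen by p in the same libraries. Among all genes tested the groups did not overlap for 56.2%. The NRP-1 pair is furthest apart, relative to its mean, for DKK1 and CTNND2.

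Within the BT-474 NRP-1 group, some of these genes differed between the libraries by as much as genes differed between the groups. The log2 ratio of CPM of NRP-1 replicate 3 over replicate 2 was -1.61 for FZD7, -0.76 for DKK1, -0.66 for FZD6 and 0.62 for CTNND2. The ratio of control replicate 2 over replicate 1 was -0.32, 0.58, 0.17 and 0.53 for the same genes. WNT5A had the largest ratio between the control libraries, at 1.02. DKK1 was thus higher in NRP-1 replicate 2 and CTNND2 in replicate 3, the library with the larger sum of the proliferation genes.

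**Figure D5:**
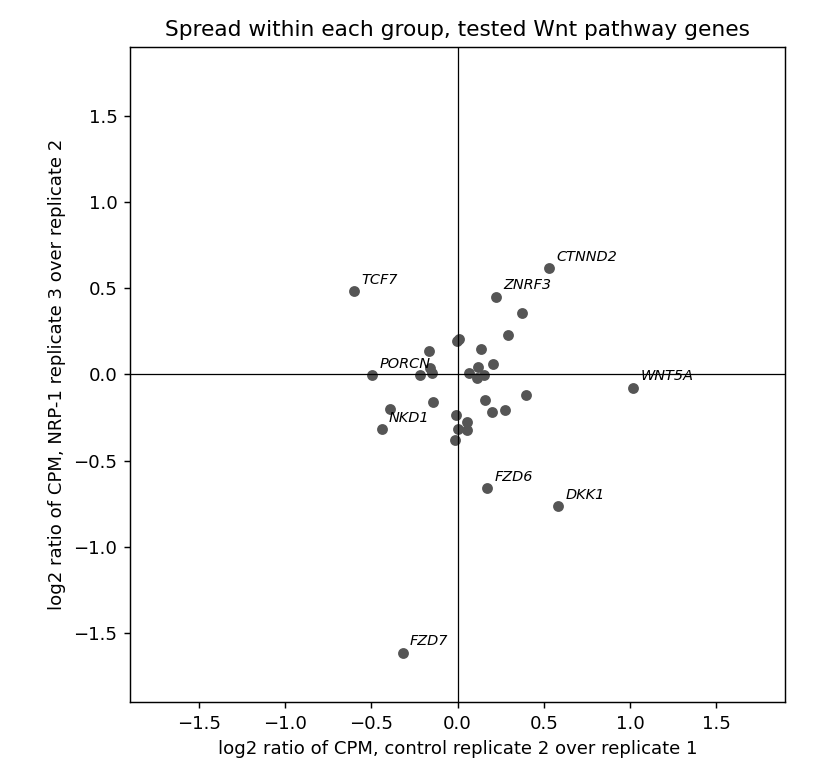
Log2 ratio of CPM between the NRP-1 libraries (vertical axis, replicate 3 over replicate 2) against that between the control libraries (horizontal axis, replicate 2 over replicate 1) for the 34 tested genes. FZD7 stands lowest at -1.61 and WNT5A furthest right at 1.02.

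A further 130 genes of the pathway were taken in 8 lists, of which 83 were tested and 0 had an adjusted p under 0.05 in edgeR, while DESeq2 called 7, with 5 higher (KREMEN1, TLE3, CREBBP, EPHB3 and VCL) and 2 lower (WNT5B and MYC). The DESeq2 calls are 8.43% of the 83 genes, against 6.67% of all genes tested. In edgeR, at an unadjusted p under 0.05, 13 were higher and 14 lower, 32.5% against 22.9% of all genes tested, and the median log2 fold change of the 83 was 0.05. The genes named from each list are those with the smallest p, which is a choice by value.

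Of the further ligands, 3 of 21 genes were tested. At an unadjusted p under 0.05, 2 were lower, against 12.1% of all genes. WNT5B had 54 and 58 reads without and 13 and 4 reads with NRP-1 overexpression, a log2 fold change of -2.76 (SE 0.51 and adjusted p = 0.0640 from edgeR). It was -3.84 without NRP-1 replicate 2 and lay between -3.84 and -2.15 over the libraries left out. WNT9A had 62 and 71 reads against 113 and 86, or 0.52 on the log2 scale (adjusted p = 0.273 from edgeR). Both groups were separate for each of these ligands. WNT9A made up 22.9% and 27.5% of the summed FPKM of the 16 ligands in the controls, against 45.0% and 39.6% with NRP-1, whereas WNT5B was at 11.0% and 12.2% against 2.82% and 1.05%. WLS, the carrier that takes Wnt proteins to the cell surface, was at -0.33 on the log2 scale (adjusted p = 0.162 from edgeR).

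Of the further receptors, 5 of 11 were tested. At an unadjusted p under 0.05, 1 was higher and 2 lower, against 10.8% and 12.1% of all genes. These were KREMEN1, a receptor of DKK1, at a log2 fold change of 0.57 (adjusted p = 0.0748), and PTK7 and TMEM59 at -0.33 and -0.42 (adjusted p = 0.201 and 0.213, all from edgeR). Among 12 further secreted or surface inhibitors, APCDD1 was the 1 tested, with 113 and 120 reads against 68 and 57 and the log2 difference -0.96 (adjusted p = 0.0824 from edgeR).

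All 20 further genes of the destruction complex and beta-catenin turnover were tested. At an unadjusted p under 0.05, 3 were higher and 2 lower, against 10.8% and 12.1% of all genes. FRAT1, which binds the kinase GSK3, was at -1.06 on the log2 scale (adjusted p = 0.0829), the kinase gene CSNK1E -0.44 (adjusted p = 0.119) and the deubiquitinase gene USP34 0.38 (adjusted p = 0.136, all from edgeR). Of 16 nuclear cofactors tested, 3 were higher and 1 lower at that threshold (10.8% and 12.1% of all genes). TLE3, a corepressor of TCF factors, had 741 and 836 reads against 1336 and 1287, or 0.68 on the log2 scale (adjusted p = 0.0640 from edgeR). Its relative TLE2 went the other way at -0.65 (adjusted p = 0.0894), and the coactivator gene EP300 had 0.55 (adjusted p = 0.0792, both from edgeR).

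In the planar cell polarity list, where Wnt signals act without beta-catenin, 11 genes were tested. At an unadjusted p under 0.05, 1 was higher and 2 lower, against 10.8% and 12.1% of all genes. VANGL1 was at 0.60 on the log2 scale (adjusted p = 0.0728), DAAM2 -1.88 (adjusted p = 0.0931) and DAAM1 -0.34 (adjusted p = 0.176, all from edgeR). Of 17 further target genes tested, 3 were higher and 5 lower at that threshold (10.8% and 12.1% of all genes). TNFRSF19 had 43 and 46 reads against 103 and 101, or 1.14 on the log2 scale (adjusted p = 0.0721 from edgeR), and EPHB3, a receptor that positions epithelial cells, had 0.68 (adjusted p = 0.0801 from edgeR). APCDD1, named above, was the third of this list. MYC, a target gene that drives growth, was chosen after its values were seen and had 1113 and 1116 reads against 231 and 553, or -1.57 on the log2 scale (adjusted p = 0.0893 from edgeR). It was -2.33 without NRP-1 replicate 3, the library with more MYC reads of that pair, and -1.08 without replicate 2. Of 12 further catenin family and cadherin genes tested, 2 were higher and 0 lower at that threshold (10.8% and 12.1% of all genes). VCL, which encodes the junction protein vinculin, was at 0.56 on the log2 scale (adjusted p = 0.0742), PKP3 0.49 (adjusted p = 0.201) and CTNNAL1 0.66 (adjusted p = 0.271, all from edgeR).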

How the data were processed

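RNA sequencing was analysed, with 2 libraries of control cells and 2 of BT-474 NRP-1 cells. Per library and gene, the authors deposited an expected count, which is not normalised, and an FPKM value scaled to transcript length and mapped reads. The submitters' processing notes name bcl2fastq 2.16, HISAT2 2.0.1, Bowtie2 2.2.5 and RSEM, and both GRCh38 and hg19 without a role. Of the expected counts above 0, 32.8% were not whole (tolerance 0.005), since reads shared by similar genes or isoforms are divided, and a gene not listed in a library was taken as 0. Also deposited was a table of the authors' own comparison with group means, ratios and a probability, which was not used. Symbols were found for 99.4% of the 18882 gene IDs.

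Counts were rounded, filtered (filterByExpr), scaled (TMM, factors from 0.986 to 1.014) and fitted by group alone in edgeR 4.0.16 (R 4.3.3, glmQLFTest). A call is a Benjamini-Hochberg adjusted p under 0.05 over all tested genes. The standard error is the absolute log2 fold change divided by the square root of F. CPM values are TMM-normalised, and levels of different genes were compared by FPKM. With 2 libraries against 2, an exact permutation test of 1 gene gives no p below 0.33. Alternatives were DESeq2 1.42.0, limma 3.58.1 on log2 FPKM with a pseudocount of 1 or 0.1 (mean FPKM at least 0.5), other scalings, no filter, pooled readthrough reads and the omission of each library. The tests were checked on simulated data. The genes and lists were chosen with earlier results of these data known. Every gene of the pathway set is named, and of each further list the 3 genes with the smallest unadjusted p.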

Additional observations from a re-analysis of the deposited data

How the results depend on the processing

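Among all genes, edgeR called 156, 154 without TMM, 163 with RLE factors and 954 (398 higher) in DESeq2. Limma called 7 genes with a pseudocount of 1 and 3 with 0.1. It called 0 without a filter, with 3463 genes at an unadjusted p under 0.05, and edgeR without a filter also called 0, with 3297. With adjusted p held to 0.001 and the log2 fold change to 2 in either direction, a limit whose count over all genes was added after seeing the data, edgeR called 0 genes, with 3268 at an unadjusted p under 0.05.

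Of the pathway genes, 1 was called in edgeR, 3 in DESeq2 and 0 in edgeR without a filter, in each of the 3 limma fits and at the stricter limit. CTNND2 had an adjusted p of 0.119 without a filter and of 0.105, 0.102 and 0.172 in limma. At an unadjusted p under 0.05, 8 of 34 pathway genes differed in edgeR (22.9% of all genes). Without a filter 8 of 36 did (17.5% of all genes), and in DESeq2 5 of 34 (17.3%). In the 3 limma fits 6 of 33, 6 of 33 and 7 of 36 differed, where 21.1%, 21% and 18.3% of all genes did.

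With each library left out, the lone library of a group was taken to vary like the other group. Between 0 and 5402 genes were then called, among them 0 to 9 of the pathway, and 3 to 14 pathway genes had an unadjusted p under 0.05, where 5.71% to 45.1% of all genes did. Without control replicate 1 or 2, edgeR called 0 genes, with 816 and 1236 at an unadjusted p under 0.05, and without NRP-1 replicate 2 or 3 it called 5402 and 4134 (37.8% and 28.9% of all genes, with 8 and 9 of the 34 pathway genes), the spread then coming from the control pair. The median log2 fold change of the pathway genes lay between 0.036 (without NRP-1 replicate 2) and 0.15. No paired analysis was run. The paper lists fold changes for each of 2 replicates, but the labels name no pairs and the groups share only replicate number 2.

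The sign changed for DVL2 (-0.01 in edgeR), at 0.028 without TMM and at 0.030, 0.032 and 0.030 in the limma fits, and for TCF7 (-0.02), at 0.014 without TMM and at 0.028, 0.068 and 0.028 in limma. With single libraries left out, the log2 fold change crossed 0 for DVL2 (-0.078 to 0.070), FZD1 (-0.0089 to 0.16), FZD2 (-0.16 to 0.023), FZD3 (-0.048 to 0.12), FZD6 (-0.27 to 0.40), LEF1 (-0.36 to 0.032), LGR4 (-0.24 to 0.056), TCF7 (-0.29 to 0.31), TCF7L2 (-0.015 to 0.26) and ZNRF3 (-0.11 to 0.33). The cause of these changes was not tested. Depth limits the genes with few reads, of which DKK3 and SFRP1 were not tested in the main fit.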

Other observations

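The deposited transcript length of a gene is an average over its isoforms weighted by their estimated abundance, and it differed between libraries for 12 of the 36 pathway genes. The 4 widest ranges over the libraries were 10.6% of the length for WNT5A, 7.74% for TCF7, 4.22% for LEF1 and 2.02% for ZNRF3. It was 0.921% for CTNND1. These values carry no test, and the FPKM of WNT5A and TCF7 rests on at most 39 reads in any library.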
